A study of Mus musculus with 6 samples.

Results

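Collagen chain genes were examined in cultured mouse colorectal cancer cells. The members are all genes whose symbol in the platform annotation is Col, a number, a and a number, such as Col4a1. Probe sets with a single symbol named 42 such genes out of 18193 genes, through 82 probe sets, and the brightest probe set by mean log2 intensity over the 6 arrays stood for each gene. The cells are iKAP primary cultured cells of line 3346, from a genetically engineered mouse model of colon cancer. All 6 arrays share this background and a medium with a tetracycline-free supplement. They hold 3 arrays of cells with a stable pLenti6.3 lentiviral GFP construct and 3 of the same cells with the IRF2 open reading frame in that vector. All come from a single line. Separate cultures are not stated for the 3 arrays of a group, so p-values here reflect the spread between arrays alone, which may be technical.

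Collagens are secreted or membrane-anchored proteins built from chains that wind round each other in a triple helix, with a glycine at a fixed place in each short repeat. Fibrillar collagens assemble into the tensile fibres of stroma, collagen IV forms the sheet-like network of basement membranes, and the remaining types decorate fibrils, anchor epithelium to stroma, form short-chain lattices or span the membrane. In the colon, fibroblasts make most fibrillar collagen, while epithelial and tumour cells contribute to the basement membrane on which they sit.

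The arrays were on a common scale, with medians of 18.2 to 18.7 intensity units. The probe set of Irf2, the gene that the labels name, averaged 62.6 ± 2.53 (SD, n = 3) with GFP and 36.3 ± 0.934 (SD, n = 3) with the IRF2 label (log2 fold change -0.79, SE 0.06, adjusted p by limma = 1.73e-07). Whether this probe set covers the introduced open reading frame is not given in any source used here. Read as a check, it goes against the label, so the second group is called IRF2-labelled throughout, and every direction below is that of the label. The epithelial keratin genes Krt8 and Krt18 read 3533 ± 32.7 and 5015 ± 51.6 on GFP control arrays (SD, n = 3 each), and the epithelial Epcam 48.2 ± 1.27. Of 11 fibroblast markers, 6 (Thy1, Lum, Fap, Pdpn, Tcf21 and Dpt) lay under the intensity filter. The other 5 lay above it, among them Acta2 at 80.8 ± 4.67 and Pdgfrb at 56.7 ± 5.42 on GFP control arrays. Levels of different probe sets are not comparable, so these values do not rank the cell types. Under the filter were also 3 of 12 epithelial markers (Krt20, Vil1 and Esrp1), 4 of 7 endothelial markers, Pecam1 among them, and 3 of 7 immune markers, Ptprc among them. Among all 12795 genes above that filter, an intensity of 11.3, 36.3% passed an adjusted p of 0.05 between the groups. Of all genes tested, 16.5% were called higher and 19.8% lower on the IRF2-labelled arrays.

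Of the 42 collagen genes, 23 lay above the filter and were tested. On the IRF2-labelled arrays, 7 were higher, 3 were lower and 13 did not pass, which is 43.5% called against the 36.3% of all genes. The groups did not overlap in 11 of the 23, against 46.2% of all genes tested. The collagen genes were thus called about as often as genes at large. Their median log2 fold change was 0.045, against -0.001 for all genes tested, and it covers the members that passed the filter, not all 42. The filter used the mean over all arrays. Of the 23, 2 (Col14a1 and Col1a2) had a GFP control mean at or under it, and 0 had an IRF2-labelled mean there. A member could thus enter the count and the median through the IRF2-labelled arrays, where it was higher. In size the members differed: Col8a1 was lower by close to 2-fold and Col5a3 was higher by 1.59-fold, while the other 8 called members stayed under 1.5-fold. A change of at least 1.5-fold among called genes was seen in 2 of 23 members and in 2.55% of all genes tested. In these bulk samples, fewer cells of a type and less RNA per cell cannot be told apart.

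RefSeq windows of 250 bases before to 50 after a gene start (GRCm38.p6) were found for 33 of the 42 members. Bases upstream of the start and outside every RefSeq gene span are shown for the member that fell most and for the type V chains called higher. Col14a1 rose more than Col5a1 (0.38 against 0.31 on the log2 scale) but had no such window. The genes shown were picked by their results, and any link between sequence and direction was not tested. Capitals mark a match to AANNGAAA, a single IRF half-site, on either strand.
Col8a1, chr16:57754738-57754987, minus strand: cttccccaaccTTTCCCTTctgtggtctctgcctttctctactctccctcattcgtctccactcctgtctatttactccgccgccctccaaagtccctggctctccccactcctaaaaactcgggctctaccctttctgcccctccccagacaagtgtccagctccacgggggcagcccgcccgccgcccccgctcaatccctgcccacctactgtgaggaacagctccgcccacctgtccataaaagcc
Col5a3, chr9:20815118-20815317, minus strand: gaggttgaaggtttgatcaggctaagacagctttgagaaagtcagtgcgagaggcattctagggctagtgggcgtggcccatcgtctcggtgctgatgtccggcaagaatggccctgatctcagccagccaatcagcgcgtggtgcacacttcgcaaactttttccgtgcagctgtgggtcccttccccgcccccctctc
Col5a1, chr2:27886175-27886380, plus strand: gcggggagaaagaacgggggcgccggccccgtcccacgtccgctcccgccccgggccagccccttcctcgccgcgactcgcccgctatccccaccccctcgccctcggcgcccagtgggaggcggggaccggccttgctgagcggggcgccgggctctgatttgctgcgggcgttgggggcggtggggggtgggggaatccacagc

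The G and C content was 60.8% in the Col8a1 stretch, 58% in that of Col5a3 and 77.7% in that of Col5a1. A paired element, GAAA followed after any 2 bases by another GAAA, occurred on either strand in 0 of the 36 collagen windows and in 3.44% of the 32851 windows of the table, each 300 bases long. The single half-site AANNGAAA, which the paired element contains, occurred in 7 of the 36 (19.4%) and in 23.9% of all windows. Windows were found for 8 of the 10 called members, and among those 8 Col8a1 alone held a match to it. An AP-1 site, TGANTCA, occurred in 1 of the 36, that of Col6a1, and in 7.81% of all windows. These are counts of letters and say nothing about binding. The windows of Col4a1 and Col4a2, which run in opposite directions, share 78 bases, so what lies there is common to both genes.

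**Figure D1:**
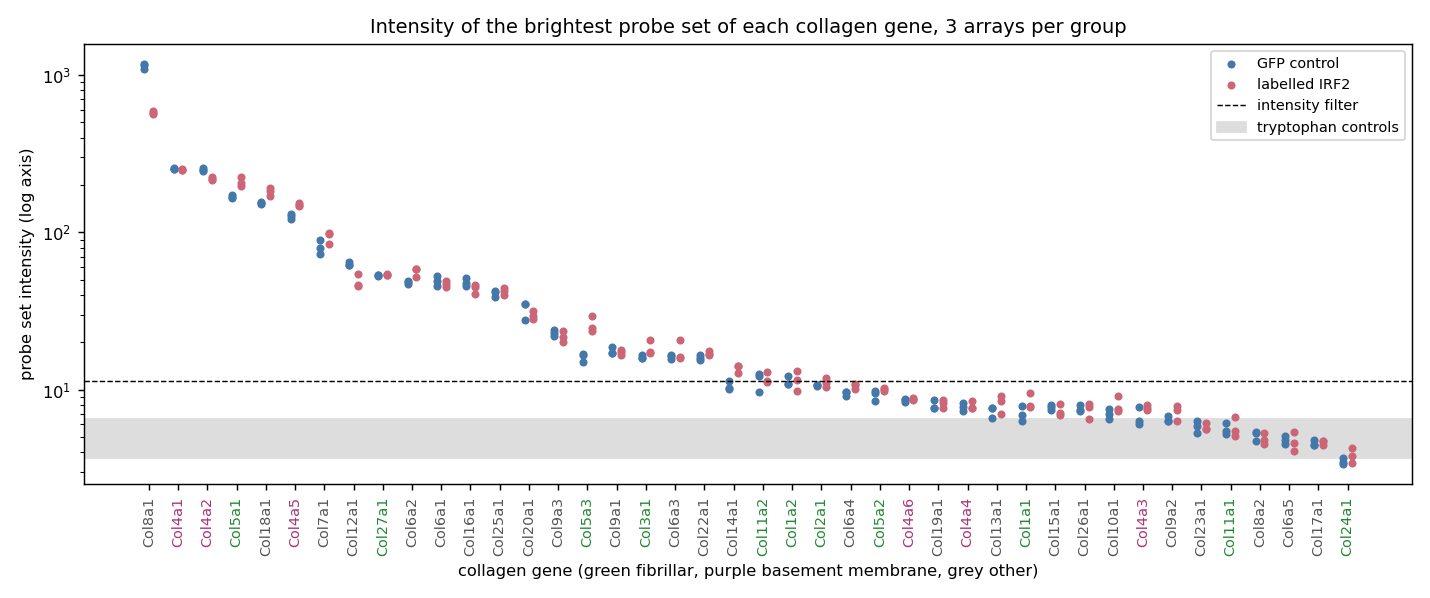
Intensity (log axis) of the brightest probe set of the 42 collagen genes, ordered by mean log2 intensity, with 3 GFP control arrays and 3 IRF2-labelled arrays as points. The dashed line is the filter at 11.3, above which 23 genes lie, and the grey band spans the tryptophan controls, 3.69 to 6.52; levels of different probe sets are not comparable with each other, only with these lines.

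Col8a1 encodes the alpha 1 chain of the short-chain collagen VIII, a lattice collagen of vessel walls and of Descemet's membrane in the eye. Its intensities were 1099, 1176 and 1156 with GFP, against 566, 577 and 592 with the IRF2 label. Every GFP control array was above every IRF2-labelled array by a wide gap. The mean fell from 1144 ± 40.1 to 578 ± 13.1 (SD, n = 3 each), which is -0.98 on the log2 scale (SE 0.03, 95% interval -1.05 to -0.92, limma adjusted p = 3.18e-12). Its other 2 probe sets, which read 450 ± 6.68 and 102 ± 7.496 on GFP control arrays, gave -0.9985 (SE 0.03) and -0.79 (SE 0.06), so all 3 moved the same way. Col8a2, the other chain of this type, read 5.14 ± 0.365 and 4.86 ± 0.415 (SD, n = 3 each), no brighter than the bacterial tryptophan gene controls (3.69 to 6.52), which no mouse transcript should fill. Col10a1, the short-chain collagen of hypertrophic cartilage, was also under the filter.

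Among the fibrillar collagens, 2 of the 3 type V chain genes on the array, Col5a1 and Col5a3, were called higher on the IRF2-labelled arrays. The third was under the filter. The share called higher among all genes tested was 16.5%, and 3 genes are too few to set against it. Collagen V co-assembles with the major fibrillar types and is known to set the diameter of their fibrils. Col5a1 read 172, 166 and 168 on GFP control arrays and 196, 226 and 207 on the IRF2-labelled arrays. No GFP control array reached the lowest of the other group, and the log2 fold change was 0.31 (SE 0.05, limma adjusted p = 1.10e-04). Its other probe sets above the filter gave smaller values, 0.07 (SE 0.05) and 0.10 (SE 0.08), neither past the threshold over probe sets (adjusted p = 0.305 and 0.412), and the mean of all 3 gave 0.16 (adjusted p = 0.0132, the highest over the alternatives, of which the lowest was 1.21e-05).

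Col5a3, a further type V chain with a narrower tissue range, read 16.9, 16.6 and 15 on GFP control arrays. With the IRF2 label it read 23.6, 29.4 and 24.6. These ranges are apart, and the rise of 0.67 on the log2 scale (SE 0.10, limma adjusted p = 5.10e-05) was the largest rise among the 23 collagen genes tested. The gene is dim, and the size depends on the treatment of low values: adding 16 to each value before taking logs gave 0.38, and the mean with its other probe set, which lay within the tryptophan control range at 4.55 ± 0.342 (SD, n = 3), gave 0.32. Col5a2 lay under the filter at 9.25 ± 0.650 and 9.999 ± 0.230 (SD, n = 3 each).

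The major fibrillar chains of stroma were dim or under the filter. Col1a1, the main chain of type I collagen of skin, bone and tumour stroma, read 7.04 ± 0.782 and 8.35 ± 0.994 (SD, n = 3 each) and was not tested. Its partner chain Col1a2 read 10.9, 12.2 and 10.8 on GFP control arrays and 13.1, 9.77 and 11.6 on the IRF2-labelled arrays. The groups overlapped, and the difference of 0.015 on the log2 scale had a 95% interval of -0.22 to 0.25. Col3a1, the chain of type III collagen of distensible tissues, read 15.97, 15.9 and 16.5 against 17.3, 20.7 and 17.0. These groups did not overlap, but the difference of 0.18 (SE 0.09, limma adjusted p = 0.153) did not pass.

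Of the cartilage-type fibrillar chains, Col2a1 and Col11a1 lay under the filter, and Col11a2, at 11.4 ± 1.599 (SD, n = 3) on GFP control arrays, differed by 0.055 (95% interval -0.18 to 0.29). Col27a1, a fibrillar chain of developing cartilage, read 53.5, 53.0 and 53.5 against 53.6, 54.1 and 53.2. All 6 arrays thus lay between 53.0 and 54.1, and the 95% interval of the log2 difference was -0.12 to 0.13. Col24a1 was under the filter at 3.50 ± 0.163 (SD, n = 3). In all, 6 of 11 fibrillar genes were tested, of which 2 rose and 0 fell at an adjusted p of 0.05 (33.3% called, against 36.3% of all genes); at an unadjusted p of 0.05 the count that fell was also 0.

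**Figure D2:**
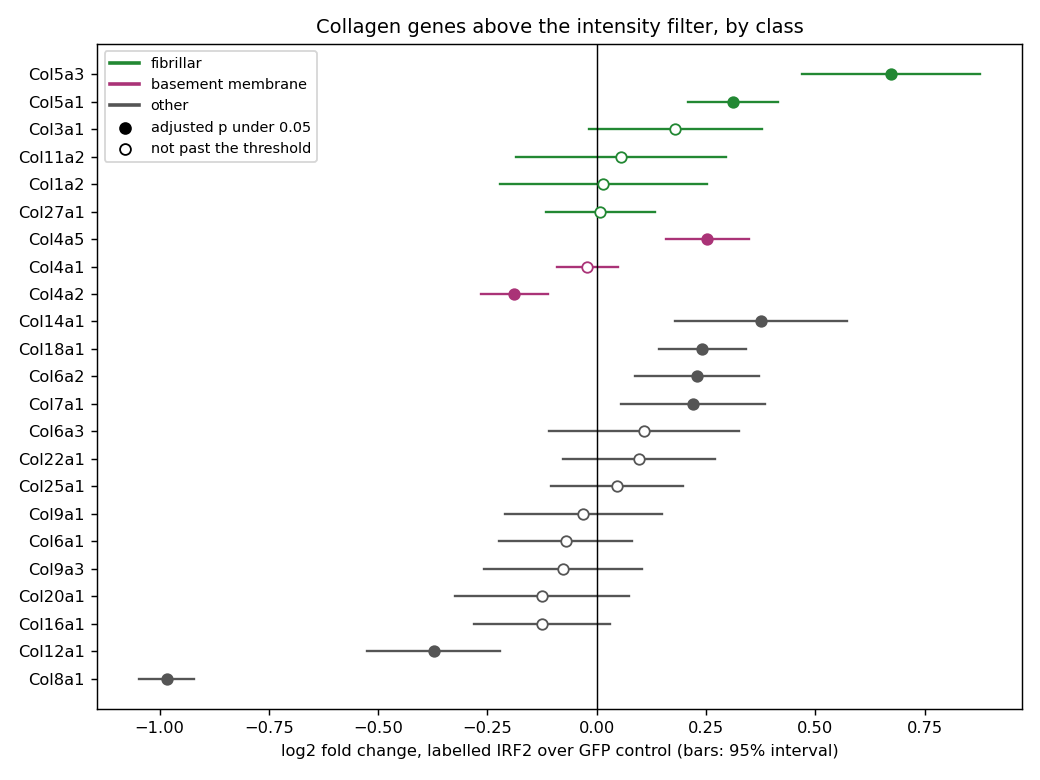
Log2 fold change, IRF2-labelled over GFP control arrays, of the 23 collagen genes above the filter, with 95% intervals as bars and filled points for genes past an adjusted p of 0.05. Fibrillar genes (green) sit between 0.0082 and 0.67, the 3 collagen IV genes (magenta) between -0.19 and 0.25, and the others (grey) between -0.98 and 0.38.

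The collagen IV chains moved in different directions. Of 6 genes, 3 were tested, of which 1 rose and 1 fell (66.7% called, against 36.3% of all genes). The usual basement membrane network is built from the alpha 1 and alpha 2 chains, whereas the alpha 3 to alpha 6 chains form networks of more restricted tissues. Col4a2 read 250, 245 and 257 on GFP control arrays and 224, 216 and 219 on the IRF2-labelled arrays. Every IRF2-labelled array was lower, and the change was small, -0.19 (SE 0.04, limma adjusted p = 6.59e-04). The gene has 1 probe set.

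Its divergent neighbour Col4a1 read 254, 252 and 257 against 253, 249 and 249. The groups overlapped, and the 95% interval of the log2 difference was -0.09 to 0.05. Its second probe set told otherwise: it averaged 85.1 ± 1.94 with GFP and 103 ± 1.43 with the IRF2 label (SD, n = 3 each), a change of 0.28 (SE 0.05, limma adjusted p = 5.05e-04 over probe sets). Both probe sets carry the same accession in the annotation, and the mean of the pair was higher by 0.13 (adjusted p = 0.00707; range over all alternatives 0.00707 to 0.942), so no single direction holds for Col4a1.

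Col4a5, an X-linked chain known for Alport syndrome of the kidney, read 121, 131 and 126 on GFP control arrays and 149, 148 and 153 on the IRF2-labelled arrays. All 3 of the latter were above all 3 controls, and the gene was higher by 0.25 (SE 0.04, limma adjusted p = 3.60e-04). Its second probe set gave the same value, 0.25 (SE 0.07). Col4a6, which lies head to head with it, read 8.52 ± 0.209 (SD, n = 3) on GFP control arrays, under the filter, as did Col4a3 and Col4a4.

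Within each array, the log2 difference between chains of a type was compared in 4 pairs by a two-sided exact permutation test over the 6 arrays. The log2 ratio of Col4a2 to Col4a1 was 0.17 lower on the IRF2-labelled arrays with the brightest probe set of each, that of Col4a5 to Col4a1 was 0.27 higher, that of Col6a2 to Col6a1 was 0.30 higher, and that of Col5a3 to Col5a1 was 0.36 higher. The values of the groups were apart in all 4 pairs. Each pair holds a chain that was itself called between the groups (Col4a2, Col4a5, Col6a2 or Col5a3). Other pairs within a type were not compared, so the separation adds little to those calls. Each exact p was 0.1 (0.1 after Benjamini-Hochberg adjustment), the smallest that 3 arrays against 3 allow. The test could therefore not pass the threshold used for genes, and no conclusion is drawn from it. The sizes of the 4 differences depend on the probe set and on low values, under alternatives added after the data were seen. Averaged over probe sets, the difference was -0.32 for Col4a2 to Col4a1, 0.12 for Col4a5 to Col4a1, 0.22 for Col6a2 to Col6a1 and 0.16 for Col5a3 to Col5a1, and adding 16 brought the last to 0.09.

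**Figure D3:**
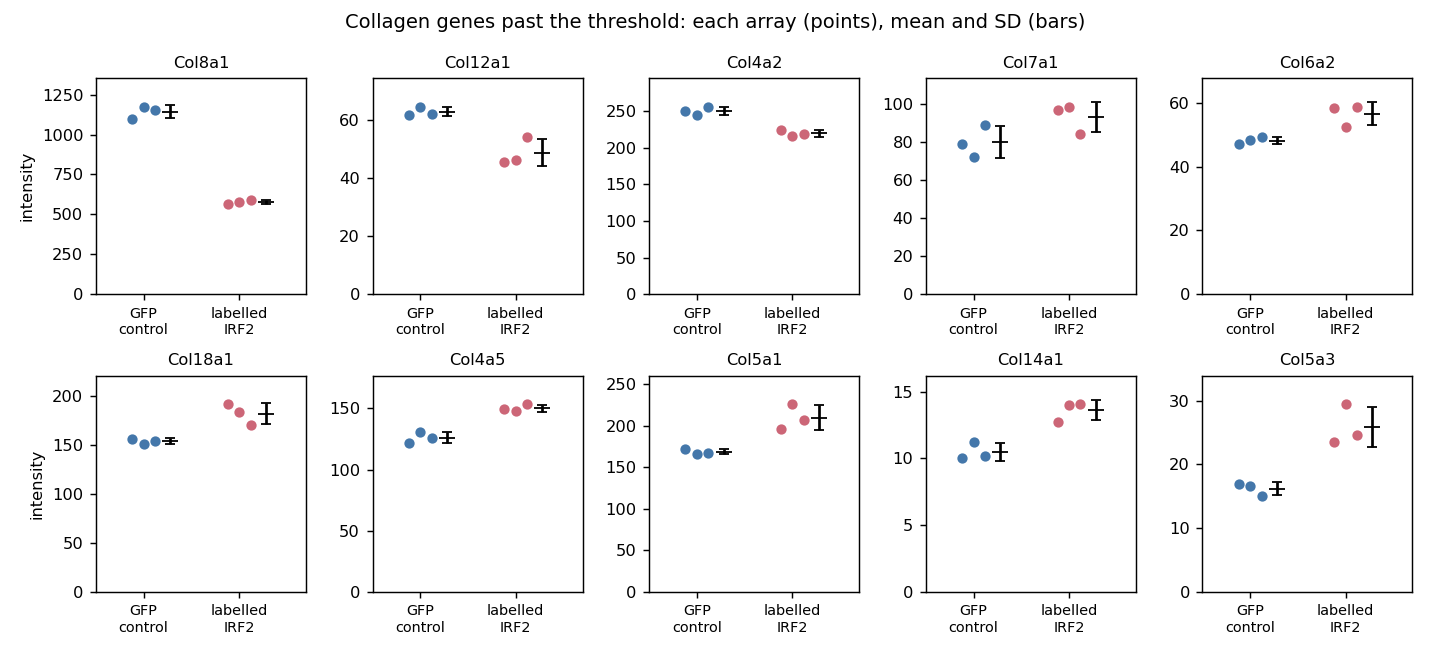
Intensity on each array (points) of the 10 collagen genes past an adjusted p of 0.05, with the mean and SD of each group of 3 arrays as bars; every vertical axis starts at 0. The groups are apart in 9 of the 10 panels, and the exception is Col7a1, whose highest GFP control array (89.1) is above the lowest IRF2-labelled array (84.2). Among all genes tested, called or not, the groups are apart in 46.2%. The 10 genes were picked for passing on these same arrays, so the separation adds no support to their calls.

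Of 14 genes tested in the remaining classes, 4 rose and 2, Col8a1 and Col12a1, fell (42.9% called, against 36.3% of all genes). Col12a1, a fibril-associated chain that bridges fibrils to other matrix, read 62.0, 64.8 and 62.1 on GFP control arrays and 45.8, 46.4 and 54.1 on the IRF2-labelled arrays. All of the latter were lower, by 0.37 on average (log2 fold change -0.37, SE 0.07, limma adjusted p = 6.99e-04). Its second probe set above the filter gave -0.16 (SE 0.07, adjusted p = 0.107 over probe sets), and the mean of all 4 of its probe sets, 2 of them under the filter, gave -0.067 (adjusted p = 0.394; range over all alternatives 1.82e-04 to 0.394), so its call rests on the brightest.

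Col14a1, another fibril-associated chain, read 10.1, 11.3 and 10.2 against 12.7, 14.0 and 14.1, a rise of 0.38 (SE 0.09, limma adjusted p = 0.00464), with no overlap of the groups. Its GFP control mean, 10.496, lies under the filter, so it entered the test through the arrays labelled IRF2, where it was higher; adding 16 before the log gave 0.16, and the mean of its probe sets 0.18. The other 5 tested fibril-associated genes did not pass. Of these, Col16a1 differed by -0.13 (95% interval -0.28 to 0.03) and Col20a1 by -0.12 (95% interval -0.32 to 0.07), and the latter passed without the replicate 2 GFP control array (-0.23, adjusted p = 0.0462; range over all alternatives 0.0462 to 0.702). Col9a1, Col9a3 and Col22a1 lay between -0.08 and 0.10.

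Col18a1, the multiplexin of basement membrane zones whose C-terminal fragment is endostatin, read 156, 151 and 154 with GFP. With the IRF2 label it read 191, 184 and 171. Again the groups were apart, and the rise of 0.24 (SE 0.05, limma adjusted p = 6.98e-04) was matched by its second probe set at 0.23 (SE 0.05). Col15a1, the other multiplexin, was under the filter.

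Col7a1 forms the anchoring fibrils that tie epithelial basement membrane to stroma. It read 79.2, 72.3 and 89.1 against 97.0, 98.8 and 84.2. The groups overlapped, and although the gene passed at 0.22 (SE 0.08, limma adjusted p = 0.0354), the call was lost when the replicate 1 or 2 GFP control array (adjusted p = 0.0743 and 0.156) or the replicate 1 or 2 IRF2-labelled array (0.125 and 0.148) was left out. It was also lost without the intensity trend (adjusted p = 0.12). The gene has 1 probe set, so its value stayed at 0.22 in the fit with probe sets averaged, but its adjusted p there was 0.0589. Over all alternatives the adjusted p ran from 0.00917 to 0.156.

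The collagen VI chains form beaded filaments near cell surfaces. Col6a2 read 47.0, 48.2 and 49.3 against 58.4, 52.4 and 58.8, a rise of 0.23 (SE 0.07, limma adjusted p = 0.0128). No control array reached the other group, but the second probe set gave 0.07 (SE 0.09). Averaged over its probe sets the gene did not pass (0.15, adjusted p = 0.0998), nor without the replicate 1 or the replicate 3 IRF2-labelled array (adjusted p = 0.0546 and 0.0562; range over all alternatives 0.00634 to 0.0998). Col6a1 differed by -0.07 (95% interval -0.22 to 0.08) and Col6a3 by 0.11 (95% interval -0.11 to 0.32). Of the transmembrane collagens, Col25a1 alone was above the filter and differed by 0.045 (95% interval -0.11 to 0.20), while Col13a1, Col17a1, the hemidesmosome collagen of stratified epithelium, and Col23a1 were under it.

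**Figure D4:**
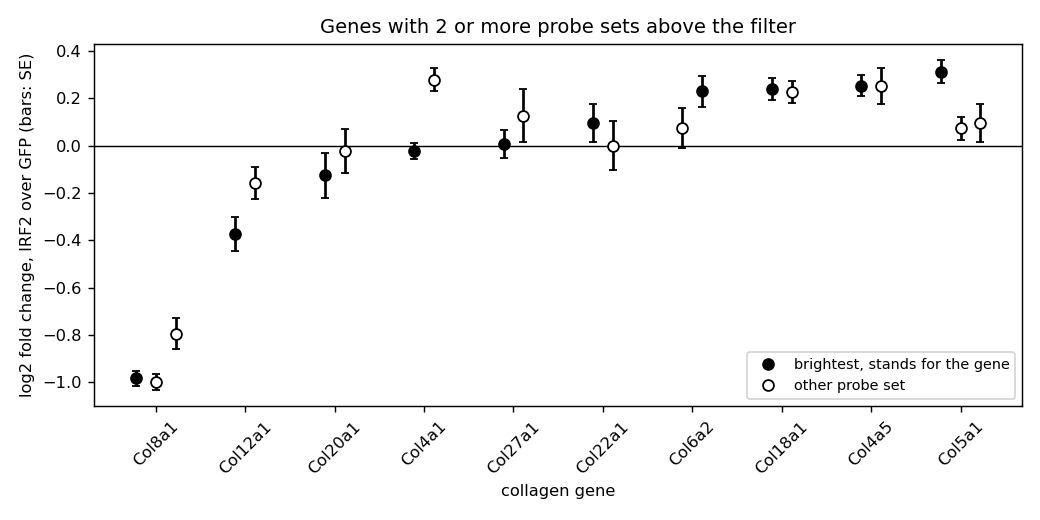
Log2 fold change, IRF2-labelled over GFP control arrays, with SE bars, for the 10 collagen genes with at least 2 probe sets above the filter; the filled point is the brightest probe set, which stands for the gene. The 3 probe sets of Col8a1 sit between -0.9985 and -0.79, those of Col18a1 and Col4a5 lie close together, and those of Col4a1 differ, at -0.02 and 0.28.

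The 19 collagen genes under the filter read between 3.35 and 11.8 over all arrays. Those not yet named are Col6a5 and Col6a4 of the collagen VI family, the fibril-associated Col9a2 and Col19a1, and Col26a1. The groups did not overlap in 1 of the 19, Col6a4, which read 9.09, 9.6 and 9.6 against 10.9, 10.7 and 10.1. In 5 of the 19 all 6 arrays were at or below 6.52, the highest tryptophan control value. With the filter removed, limma called 0 of the 19 (lowest adjusted p = 0.12, that of Col1a1, and 1 of the 19 at an unadjusted p of 0.05). The mean log2 intensity was higher on the IRF2-labelled arrays in 15 of the 19. It was lower there for Col15a1, Col26a1, Col8a2 and Col6a5. The matching shares among all genes under the filter were not computed, so no conclusion is drawn from these counts. A low intensity does not show that the gene is silent, since no detection call was used. Of the 10 called members, 6 had at least 2 probe sets above the filter, and in 6 of these 6 the probe sets shared a sign. For Col5a1, Col12a1 and Col6a2, however, no probe set but the brightest passed over probe sets (limma adjusted p = 0.305 and 0.412, 0.107, and 0.571). Some probe sets under the filter had the other sign, at 0.11 and 0.15 for Col12a1, -0.04 for Col5a3 and -0.03 for Col14a1. The share with a common sign among all called genes was not computed.

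Genes that make, bind and break down collagen were described from lists of their members. Of 48 such genes tested, 14 were higher, 13 were lower and 21 did not pass (56.2% called, against 36.3% of all genes), with a median log2 fold change of 0.046. Of 17 folding and hydroxylation genes tested, 5 rose and 7 fell (70.6% called, against the same 36.3%). Serpinh1, the collagen-specific chaperone HSP47, rose by 0.48 (SE 0.04), from a mean of 178.5 ± 6.995 to one of 248.6 ± 9.15 (SD, n = 3 each), and Fkbp14, a prolyl isomerase of the endoplasmic reticulum, rose by 0.74 (SE 0.06; 0.35 averaged over its probe sets). P4ha2, a catalytic subunit of prolyl 4-hydroxylase, fell by 0.46 (SE 0.04), from 248.8 ± 10.1 to 181 ± 0.0513 (SD, n = 3 each), and Colgalt1, which adds galactose to hydroxylysine, fell by 0.32 (SE 0.03). P4ha1, the other major catalytic subunit, differed by -0.05 (SE 0.04, limma adjusted p = 0.386). A further catalytic subunit, P4ha3, was dim and went the other way from P4ha2. It rose by 0.34 (SE 0.09, limma adjusted p = 0.0055), from 14.3 ± 0.787 to 18.0 ± 0.822 (SD, n = 3 each).

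Of 6 genes tested for propeptide removal and crosslinking, 3 rose and 2 fell (83.3% called, against 36.3% of all genes). The lysyl oxidase family members went opposite ways, Loxl3 higher by 0.47 (SE 0.08; 0.31 after adding 16) and Loxl4 lower by 0.32 (SE 0.05). Bmp1, the procollagen C-proteinase, was higher by 0.29 (SE 0.06; 0.13, adjusted p = 0.317, averaged over its probe sets, the highest over the alternatives, of which the lowest was 5.82e-04), and Pcolce, which enhances that cleavage, fell by 0.14 (SE 0.02). Pcolce2, of the same list, rose by 0.14 (SE 0.03, limma adjusted p = 0.0014). Lox and Loxl1 were under the filter. Of the 8 fibril-binding proteoglycan genes, 3 were tested and 0 passed in limma (0 also at an unadjusted p of 0.05): Bgn differed by 0.16, Dcn by -0.07 and Prelp by 0.0019.

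Among collagen receptors, 3 of 5 tested genes rose and 0 fell (0 also at an unadjusted p of 0.05), against 16.5% of all genes called higher and 19.8% lower; of the 3, Itga2 lost its call under alternatives given with its value. Itgb1, the beta chain of all collagen-binding integrins, rose by 0.30 (SE 0.02), from 2401 ± 43.5 to 2953 ± 48.7 (SD, n = 3 each). The collagen-binding integrin chain Itga2 was higher by 0.35 (SE 0.12, limma adjusted p = 0.0256), a call lost without the replicate 1 or 3 GFP control array or the replicate 1 or 2 IRF2-labelled array and without the intensity trend (adjusted p over all alternatives 0.00196 to 0.13), and the value was 0.17 after adding 16. The receptor kinase gene Ddr1 was higher by 0.145 (SE 0.03; adjusted p = 0.0568 without the intensity trend, the highest over the alternatives, of which the lowest was 6.92e-05), and Ddr2 differed by -0.0092 (SE 0.08). Of the 5 breakdown genes tested, the collagenase gene Mmp13 fell by 0.74 (SE 0.05) and Prep, a prolyl oligopeptidase, by 0.14 (SE 0.03), while the membrane-type collagenase gene Mmp14 rose by 0.17 (SE 0.03) and Mmp9 differed by 0.087 (SE 0.10).

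Of 12 other basement membrane glycoprotein genes tested, 2 rose, 2 fell and 8 did not pass. That is 33.3% called, close to the 36.3% of all genes. The laminin chains Lama5 and Lamb1 rose by 0.37 (SE 0.03; 0.21 averaged over its probe sets) and 0.15 (SE 0.03). Nid2, a nidogen that links laminin to collagen IV, fell by 0.48 (SE 0.08), and Agrn by 0.19 (SE 0.06), a value that turned to 0.032 (adjusted p = 0.726) averaged over its probe sets. The Agrn call was also lost without the replicate 3 GFP control array or the replicate 2 IRF2-labelled array (range over all alternatives 0.0154 to 0.726). Nid1 differed by -0.07 (SE 0.04, limma adjusted p = 0.166) and passed without the replicate 1 GFP control array (-0.11; range over all alternatives 0.0205 to 0.976 in adjusted p).

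**Figure D5:**
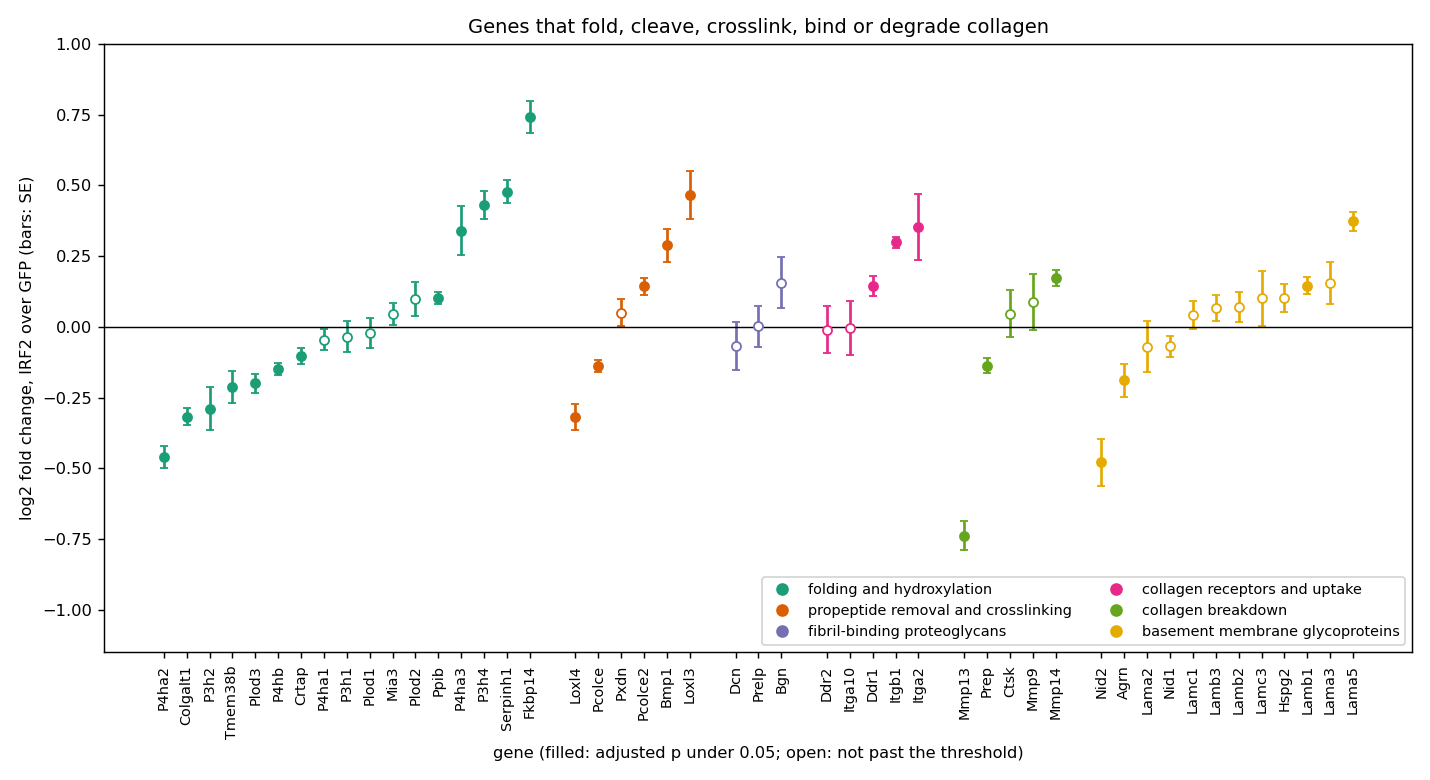
Log2 fold change, IRF2-labelled over GFP control arrays, with SE bars, of 48 genes that fold, cleave, crosslink, bind or degrade collagen, grouped by list and ordered within it; filled points passed an adjusted p of 0.05. Values run from -0.74 for Mmp13 to 0.74 for Fkbp14, and both directions occur in the folding, crosslinking, breakdown and basement membrane lists.

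Fibroblast and epithelial markers differed between the groups too. The summed intensity of the 11 fibroblast markers was 255 to 260 with GFP and 277 to 294 with the IRF2 label. Of its 5 members above the filter, Pdgfra was higher by 0.70 (SE 0.10) and Acta2 by 0.37 (SE 0.06), Pdgfrb fell by 0.40 (SE 0.08), and Des and Dcn did not pass, although Des passed without the replicate 2 GFP control array (0.24; range over all alternatives 0.0364 to 0.498 in adjusted p). Averaged over their probe sets, Pdgfra gave 0.36, Acta2 0.105 (adjusted p = 0.229, from 1.18e-05 over the alternatives) and Pdgfrb -0.16 (adjusted p = 0.0727, from 2.53e-04). The summed intensity of the 12 epithelial markers was 14636 to 14782 and 16120 to 16256, with Krt8 higher by 0.50 (SE 0.02), Krt18 by 0.08 (SE 0.02; adjusted p = 0.0866 without the intensity trend, range over all alternatives 0.00104 to 0.0866), while Cdh1 fell by 0.75 (SE 0.04), Cdh17, an intestinal cadherin, fell by 0.57 (SE 0.03) and Epcam fell by 0.81 (SE 0.11; -0.43 averaged over its probe sets). The 7 endothelial markers, 4 of them under the filter, summed to 64.8 to 66.3 and 64.8 to 69.8, and the 7 immune markers, 3 of them under it, to 196 to 216 and 214 to 228. Among all genes tested, 36.3% were called. Of the 9 epithelial markers tested, 2 rose, 3 fell and 4 (Krt19, Cldn3, Cldn4 and Cdx2) did not pass, which is 55.6% called. Krt8 averaged 3533 with GFP and 4999 with the IRF2 label, so the epithelial sum mainly follows the bright keratins and does not describe the list. Of the 3 endothelial markers tested, 0 passed in limma (0 also at an unadjusted p of 0.05). Of the 4 immune markers tested, 1 passed: Cd14, which was also the brightest of them, read 120.1 ± 8.80 and 136.6 ± 11.3 (SD, n = 3 each) and was higher by 0.18 (SE 0.06, limma adjusted p = 0.035; range over all alternatives 0.0059 to 0.152). The Cd14 call was lost without the replicate 1 or 2 GFP control array or the replicate 2 or 3 IRF2-labelled array. It was also lost without the intensity trend (limma adjusted p = 0.12). Cd14 has 1 probe set, so its value stayed at 0.18 in the fit with probe sets averaged, but its limma adjusted p there was 0.0574. The part of these markers in the collagen results was not tested.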

How the data were processed

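Total RNA of 6 samples, 3 per group, was measured on Affymetrix 3' arrays. The authors deposited one linear intensity per array for each of 45101 probe sets; per the submitters' processing notes MAS5 was among the tools, its role unstated, and no source used here gives the other steps. Names came from GEO's platform annotation. Intensities were taken to log2 without further scaling, genes at or under the 40th percentile of the 45037 non-control probe sets (11.3) were left out, and 12795 genes went into a linear model in limma 3.58.1, run under R 4.3.3 (intensity trend, group as the only term, 4 residual degrees of freedom), two-sided, with Benjamini-Hochberg adjustment over all of them and a threshold of 0.05. In simulated data for this comparison over 12795 genes, 46.3% of log2 changes of 0.2, 92.5% of 0.5 and 98.5% of 1 were recovered. The simulation used independent normal noise and changed a far smaller share of genes than the 36.3% called here. Its adjusted threshold was therefore stricter, and the recovery of small changes in the real fit may differ. The number of arrays limits the precision. Members, classes and lists were chosen with earlier results of these data known. Every collagen gene is named; from each list of partner genes, up to 4 genes with the smallest p and any with a log2 change of at least 0.5, were named by rule. Single marker genes and further partner genes were named after their values were seen. Same-numbered arrays of the groups did not deviate together (correlations 0.07, -0.08 and -0.001), so the numbers were not used as pairs. Alternatives changed the filter, added 16 before the log, used quantile normalization, the mean of probe sets, each probe set alone, other variance models, the replicate block, or left out 1 array.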

Additional observations from a re-analysis of the deposited data

How the results depend on the processing

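The counts of 7 collagen genes higher and 3 lower, and of all genes, stayed within 1.5 times under every alternative run. Leaving out 1 array gave 5 to 7 higher and 3 to 4 lower. With the replicate number as a block in the fit, 7 collagen genes were higher and 3 lower, and the block changed no call of a named gene. By class, the stricter filter at the 60th percentile (33.5) left 1 fibrillar gene higher, because Col5a3 was not tested there. In the mean of probe sets, 2 collagen IV genes were higher in place of 1, and of the other classes 2 were higher in place of 4 and 1 lower in place of 2. Leaving out 1 array gave 2 to 4 genes of the other classes higher, with 2 without IRF2-labelled replicate 1. With probe sets averaged, Col4a1 turned from -0.02 to 0.13, Agrn from -0.19 to 0.032, Ddr2 from -0.0092 to 0.065 and Prelp from 0.0019 to -0.079; quantile normalization gave -0.012 for Prelp. With 1 array left out, signs turned among genes that did not pass: values ran from -0.066 to 0.128 for Col11a2, -0.085 to 0.126 for Col1a2, -0.013 to 0.171 for Col6a3, -0.054 to 0.015 for Col9a1, -0.0086 to 0.162 for Mmp9, -0.071 to 0.096 for Ddr2 and -0.031 to 0.039 for Prelp. The causes were not tested.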
